A study of Mus musculus with 12 samples.

Results

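The small leucine-rich proteoglycans are a family of secreted matrix proteins, and 10 of their genes (Dcn, Bgn, Aspn, Fmod, Lum, Prelp, Omd, Kera, Epyc and Ogn), chosen by symbol from the 28244 genes listed, were followed through the serial differentiation of mouse cartilage progenitor pellets. The cells came from long bone ends of C57/BL6 pups aged 5 or 6 days, and pellets were kept for 7 days in chondrogenic medium and then for up to 21 days in osteogenic medium. RNA was sequenced with 3 replicates at each of D7, the end of the chondrogenic phase, D8 and D10, after 1 and 3 days in osteogenic medium, and D28, after 21 days, which makes 12 libraries in all. Every pellet had passed through the same chondrogenic phase, no pellet kept in chondrogenic medium to D28 is among the libraries analysed here, and so medium and age of the culture cannot be told apart. The labels call the cells murine mesenchymal progenitors and do not say whether replicates came from separate cell preparations, so the p-values given here measure the spread between these libraries, which may be technical.

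A small leucine-rich proteoglycan has a short core protein built of leucine-rich repeats, which bends into an arc and binds collagen fibrils, and in many members this core carries chondroitin, dermatan or keratan sulfate chains. In cartilage, tendon, cornea and bone these proteins set the width and spacing of collagen fibrils, and several of them also bind growth factors of the TGF-beta family. By sequence the family is divided into classes, with decorin (Dcn), biglycan (Bgn) and asporin (Aspn) in class I, fibromodulin (Fmod), lumican (Lum), PRELP (Prelp), osteomodulin (Omd) and keratocan (Kera) in class II, and epiphycan (Epyc) and osteoglycin (Ogn) in class III.

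All but Bgn lie in clusters on the mouse genome (GRCm38, positions of GENCODE M21). Dcn (97479609 to 97518143), Lum (97565128 to 97572703), Kera (97606879 to 97613692) and Epyc (97644068 to 97682454) follow each other on the plus strand of chromosome 10 within 203 kb. Aspn (49544443 to 49567565), Omd (49582462 to 49592822) and Ogn (49608046 to 49624501) lie on the plus strand of chromosome 13, next to Ecm2, a relative of the family. This block sits inside Cenpp, a centromere protein gene on the opposite strand, and the library kit keeps the strand, but whether reads were counted by strand is not given in the sources used here. Cenpp itself stayed between a mean log2 value of 4.90 and 5.26 at the 4 time points, below every library of Aspn, Omd and Ogn, while Ecm2 overlapped with it at D10, at a mean of 5.26 against 5.12. Prelp (133910304 to 133921414, minus strand) and Fmod (134037254 to 134048277, plus strand) lie 116 kb apart on chromosome 1, and Bgn (73483602 to 73495933) is on the X chromosome. Prelp and Epyc also overlap annotated genes of the opposite strand, Gm15851 and Gm10754, for which no values were found in the deposited table.

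RefSeq promoter entries (GRCm38.p6) were matched by symbol for 8 of the 10 genes, and Dcn and Lum had no match. The 250 bases upstream of the start are shown for the chromosome 13 neighbours, which fell together by D10, and for Bgn, which did not. Capitals mark matches on either strand to the AP-1 letters TGANTCA, the Runx letters TGTGGT, the SP1 letters GGGCGG and the TATA letters TATAAA, and the coordinates are chr13:49544193-49544442 for Aspn, chr13:49582212-49582461 for Omd, chr13:49607765-49608014 for Ogn and chrX:73483351-73483600 for Bgn, all on the plus strand.
Aspn: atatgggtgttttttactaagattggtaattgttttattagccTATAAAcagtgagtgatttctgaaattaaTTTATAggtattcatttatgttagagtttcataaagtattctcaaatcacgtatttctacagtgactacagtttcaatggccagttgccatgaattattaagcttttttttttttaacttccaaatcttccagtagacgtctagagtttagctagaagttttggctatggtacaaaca
Omd: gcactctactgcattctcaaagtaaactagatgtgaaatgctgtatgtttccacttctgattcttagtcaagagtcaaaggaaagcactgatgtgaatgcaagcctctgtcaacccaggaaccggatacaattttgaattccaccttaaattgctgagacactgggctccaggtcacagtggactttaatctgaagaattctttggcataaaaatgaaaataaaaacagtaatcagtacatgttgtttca
Ogn: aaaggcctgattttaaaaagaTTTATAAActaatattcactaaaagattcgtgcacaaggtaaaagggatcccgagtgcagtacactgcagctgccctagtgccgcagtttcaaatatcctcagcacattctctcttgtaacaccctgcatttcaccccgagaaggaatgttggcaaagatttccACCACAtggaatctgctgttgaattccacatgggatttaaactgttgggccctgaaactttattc
Bgn: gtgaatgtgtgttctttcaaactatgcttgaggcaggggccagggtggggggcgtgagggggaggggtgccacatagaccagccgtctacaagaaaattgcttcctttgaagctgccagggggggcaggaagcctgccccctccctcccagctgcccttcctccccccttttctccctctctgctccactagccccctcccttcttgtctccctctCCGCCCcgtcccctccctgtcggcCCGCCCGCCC
The GC content was 30.0% for Aspn, 38.4% for Omd and 42.0% for Ogn, below the lower quartile of 45.2% over the 32851 windows of the table, and 64.4% for Bgn, above the upper quartile of 61.2%. Epyc (39.2%) and Kera (42.4%) were also below the lower quartile, whereas Fmod (51.2%) and Prelp (55.6%), which were called lower at D10 as well, lay between the quartiles. The Bgn window held 3 SP1 matches, at 34, 10 and 6 bases before the start, with the last pair overlapping. No other of the 8 windows held this motif, which occurs in 32.7% of all windows of this length. TATA letters were found in the windows of Aspn and Ogn only, against 12.4% of all windows, and all of these matches lay at least 178 bases before the start. In Ogn the pair at 229 and 227 bases overlaps. The Runx letters were found in Ogn alone, 65 bases before its RefSeq start, against 14.0% of all windows. This start, 49608015, lies upstream of the GENCODE start of 49608046. For Ogn and Epyc the bases just after the RefSeq start were not found in a GENCODE transcript. Epyc had 2 RefSeq entries, of which 1 was used. The AP-1 letters were found in none of the 8, against 6.75%, the E-box letters CANNTG in 4 of 8 against 66.2% and the Smad letters CAGAC in 2 of 8 against 42.2%. The letters of a match describe the sequence and do not show that a factor binds there.

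The authors deposited the log2 of an equalized read count plus 1 for each gene and library, and levels below are on this scale unless stated otherwise. After equalization a gene's value depends on its rank within the library, and library totals before that step were lost. Relative depth, estimated from 562 genes with few reads, lay between 0.730 and 1.06 in the D7 and D10 libraries and between 0.962 and 1.31 in the D8 and D28 libraries, with the lowest value in D10 replicate 1. Expression differences were tested with limma over the 17674 genes with 3 or more libraries at a log2 value of 1 or above. A gene was called when its log2 fold change was 1 or more in either direction and its Benjamini-Hochberg adjusted p was under 0.05. All 10 members were tested. Sox9, the chondrocyte master regulator, had means between 12.11 and 12.44 at the 4 time points, and Col2a1, the type II collagen gene, held the highest value of the table, 20.92, in each D7, D8 and D28 library and 19.87 in each D10 library. At D10 against D7, 6 of 8 chondrocyte markers were called lower, where 10.4% of all genes were. Among them was Matn3, a cartilage matrix protein gene, with a log2 fold change of -4.37, and none of the 8 was at 0 in all libraries.

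Most of the family fell within 3 days of the medium change and rose again by D28. Of the 10 members, 8 were called lower at D10 than at D7, and the same 8 were called higher at D28 than at D10. Among all genes tested, 10.4% were called lower in the first of these comparisons, 13.8% were called higher in the second and 6.19% met both. These comparisons share the D10 libraries, so a low D10 value enters both. The members that met neither were Bgn, which stayed near the top of every library, and Kera, which was close to 0 throughout. In D10 replicate 1, the library of lowest depth, each of the 8 genes had its lowest value, and without this library 8 members were called lower at D10 than at D7 and 7 were called higher at D28 than at D10, since the rise of Epyc was then 0.84 and not called. The plot of values by library shows this dip, together with the flat course of Bgn.

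**Figure D1:**
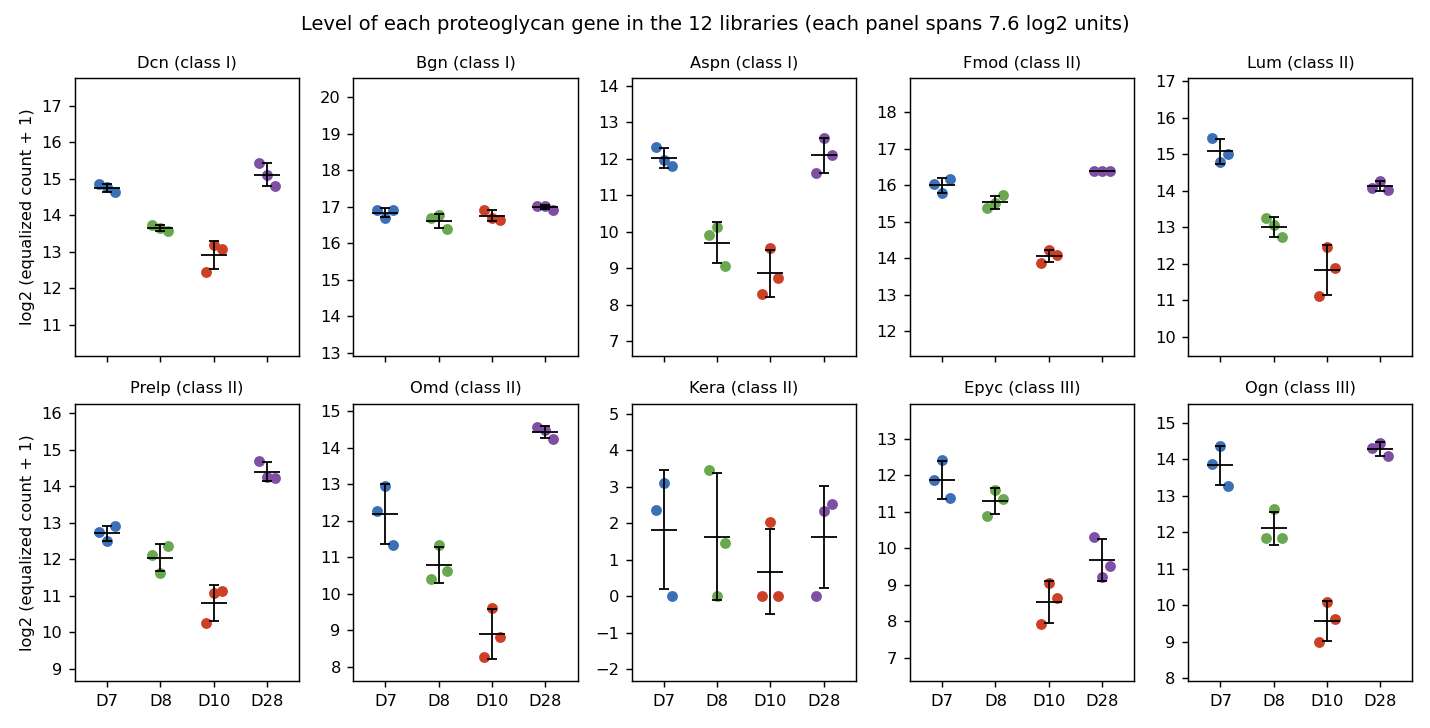
Level of the 10 genes, as log2 of the equalized count plus 1, in each library of D7, D8, D10 and D28, where points are libraries and bars give the mean and SD of 3 replicates. Dcn, Aspn, Fmod, Lum, Prelp, Omd, Epyc and Ogn have all D10 points below all D7 points, and Bgn stays between 16.38 and 17.03.

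Unlogged, the family made up 1.10% ± 0.08 of the signal of a library at D7, 0.720% ± 0.045 (D8), 0.562% ± 0.027 at D10 and 1.33% ± 0.08 by D28 (SD, n = 3). The libraries of different time points did not overlap in this share. Of the family's signal, Bgn supplied 41.7% ± 1.8 (D7), 54.6% ± 4.4 (D8), 76.9% ± 5.3 (D10) and 38.4% ± 0.9 (D28) (SD, n = 3). Without Bgn, the other 9 genes went from 0.643% ± 0.043 of the signal at D7 to 0.129% ± 0.027 at D10 and 0.818% ± 0.061 at D28 (SD, n = 3). In a pellet, fewer cells of a type and less RNA per cell cannot be told apart.

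**Figure D2:**
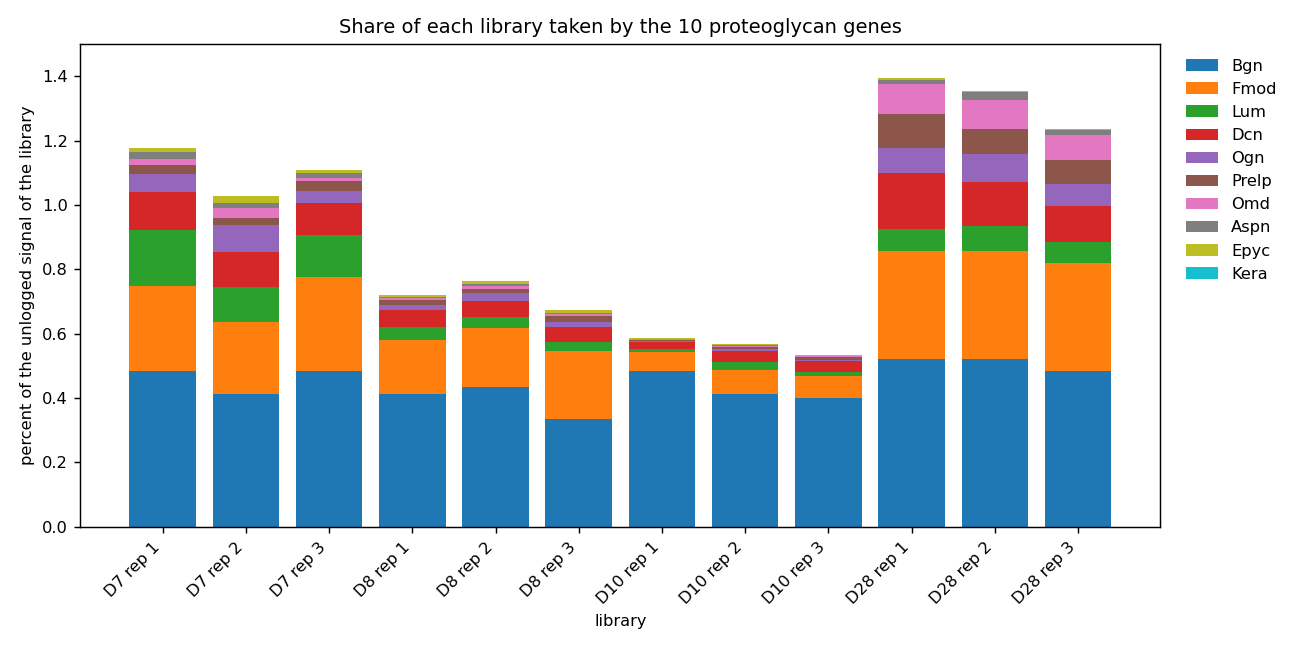
Percent of the unlogged signal of each library that came from the 10 genes, stacked by gene, for the 3 replicates of D7, D8, D10 and D28. The total is lowest in the D10 libraries, between 0.532% and 0.585%. The Bgn segment at the base of each bar lies between 0.414% and 0.485% at D7 and between 0.399% and 0.485% at D10.

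Per kilobase of annotated exon, used to set genes of different length side by side, Fmod and Bgn led at D7. The length was the union of all annotated exons of a gene, 6.10 kb for Bgn and 5.84 kb for Dcn. It was 3.31 kb for Fmod and 2.45 kb for Lum, so the order of these genes depends on this choice of length. Before division Bgn was above Fmod, with means of 130217 and 85225 equalized counts at D28. Fmod stood at 19962 ± 2699 equalized counts per kilobase and Bgn at 19310 ± 1729 (SD, n = 3), and their libraries overlapped. Lum followed with 14368 ± 3461, overlapping with Bgn, then Ogn with 5962 ± 2161 and Dcn with 4744 ± 361, which overlapped with each other. Omd, Prelp, Aspn and Epyc lay between 1531 and 2296 in their means, with overlapping libraries, and Kera was at 1.73 ± 1.68. At D10 Bgn stood alone at 18110 ± 1928, above Fmod at 5188 ± 608 and above Lum at 1578 ± 704 and Dcn at 1349 ± 336, the latter pair overlapping. By D28 Fmod, at 25779 in each library, was above every Bgn library, and Omd had moved to the next place with 9918 ± 1132, overlapping with Ogn at 7834 ± 984. Epyc, at 336 ± 140, was then below every other member except Kera.

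Within class I, Bgn, which carries chondroitin or dermatan sulfate chains and is abundant in bone and cartilage, was at 16.92, 16.69 and 16.92 in the D7 libraries, at 16.69, 16.76 and 16.38 at D8, at 16.92, 16.69 and 16.64 at D10 and at 17.03, 17.03 and 16.92 at D28. D7, D8 and D10 overlapped, D28 touched D7 and D10 at 16.92, and Bgn ranked between 14 and 23 among all genes in every library. Its log2 fold change at D10 against D7 was -0.09, with a 95% interval from -0.52 to 0.33 (limma, adjusted p = 0.74). At D28 against D7 it was 0.15, with an interval from -0.28 to 0.57. A fall or rise of the size called elsewhere in the family is outside these intervals.

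Dcn, the closest relative of Bgn and a binder of TGF-beta and of type I collagen, read 14.85, 14.78 and 14.63 at D7, 13.75, 13.64 and 13.57 at D8, 12.46, 13.18 and 13.08 at D10, and 15.44, 15.09 and 14.82 at D28. No D8 library reached the range of D7 and no D10 library that of D8, although the second step, a log2 fold change of -0.74, was under the fold threshold and not called, and the D28 libraries overlapped with those of D7. Against D7 the log2 fold change was -1.10 at D8 (standard error 0.18, adjusted p = 0.00060, limma) and -1.84 at D10 (standard error 0.18, adjusted p = 1.3e-06, limma). From D10 to D28 it was 2.21 (standard error 0.18, adjusted p = 9.3e-08, limma). Against D7 the D28 value was 0.36 higher, with a 95% interval from -0.03 to 0.75 (adjusted p = 0.14, limma), which did not pass the threshold.

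Aspn, whose product lacks the usual sugar chains, binds collagen and calcium and inhibits TGF-beta, had the lowest log2 fold change of the 10 genes after the first day. It was at 12.32, 11.96 and 11.79 at D7 and at 9.90, 10.13 and 9.06 after a single day in osteogenic medium. The values at D10 were 8.30, 9.55 and 8.72, overlapping with D8, and those at D28 were 11.62, 12.57 and 12.10, overlapping with D7. At D8 the log2 fold change against D7 was -2.33 (standard error 0.31, adjusted p = 9.6e-05, limma), which is 73.5% of the fall to D10 on the log2 scale. Between D8 and D10 the change of -0.84 did not pass the threshold, but it did without D8 replicate 3 (-1.16) or without D10 replicate 2 (-1.19). At D10 against D7 the log2 fold change was -3.17 (standard error 0.31, adjusted p = 1.0e-06, limma) and at D28 against D10 it was 3.24 (standard error 0.31, adjusted p = 4.1e-07, limma). D28 and D7 differed by 0.07, with a 95% interval from -0.59 to 0.73.

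In class II, Fmod, a keratan sulfate proteoglycan that guides collagen cross-linking, was at 16.04, 15.79 and 16.18 at D7 and 15.38, 15.51 and 15.73 at D8. It then dropped to 13.88, 14.22 and 14.08 at D10 and stood at 16.38 in each D28 library, where it held rank 23 and so received the same equalized value. A log2 fold change of -0.46 at D8 did not pass the threshold (adjusted p = 0.053, limma). From D8 to D10 it was -1.48 (standard error 0.16, adjusted p = 1.5e-05, limma), so that D8 held 23.8% of the log2 fall from D7 to D10. The recovery from D10 to D28 was 2.32 (standard error 0.16, adjusted p = 1.2e-08, limma), and the D28 libraries were above all D7 libraries by 0.38 in the mean, a difference that was not called (adjusted p = 0.077, limma).

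Lum, a keratan sulfate proteoglycan best known from the cornea and also made in cartilage, also fell within the first day. Its values were 15.44, 14.77 and 15.01 at D7, 13.25, 13.05 and 12.71 at D8, 11.10, 12.46 and 11.87 at D10 and 14.08, 14.27 and 14.01 at D28. No pair of time points overlapped. At D8 the log2 fold change against D7 was -2.07 (standard error 0.26, adjusted p = 5.8e-05, limma) and at D10 against D7 it was -3.26 (standard error 0.26, adjusted p = 1.3e-07, limma). The step from D8 to D10, -1.19 (adjusted p = 0.0031, limma), was no longer called without D10 replicate 1 (-0.84). Lum rose by 2.31 from D10 to D28 (standard error 0.26, adjusted p = 2.3e-06, limma) and stayed below D7, with a log2 fold change of -0.95 (95% interval from -1.51 to -0.40) that missed the fold threshold. It passed without D7 replicate 2 (-1.11) or without D28 replicate 2 (-1.03).

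Prelp, which anchors basement membranes to collagen through a heparin-binding end, overshot its starting level. It read 12.75, 12.49 and 12.90 at D7, 12.13, 11.63 and 12.37 at D8, 10.24, 11.06 and 11.13 at D10, and 14.69, 14.26 and 14.23 at D28. The D28 libraries were above all others, and the D10 libraries below all others. Log2 fold changes were -1.90 at D10 against D7 (standard error 0.22, adjusted p = 7.0e-06, limma), 3.58 at D28 against D10 (standard error 0.22, adjusted p = 4.1e-09, limma) and 1.68 at D28 against D7 (standard error 0.22, adjusted p = 2.6e-05, limma). Its D28 level was thus 3.20-fold that of D7. The change at D8 was -0.67 and was not called, and the step from D8 to D10, -1.23 (adjusted p = 0.00091, limma), was not called without D10 replicate 1 (-0.94).

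Omd, also named osteoadherin, a keratan sulfate proteoglycan of mineralized matrix that binds cells and mineral, had the highest fold change of the 10 from D10 to D28. The D7 libraries spread widely, at 12.26, 12.96 and 11.34, those of D8 were at 10.39, 11.34 and 10.64, those of D10 at 8.27, 9.62 and 8.81, and those of D28 at 14.57, 14.49 and 14.25. Only at D7 and D8 did neighbouring time points touch, with the lowest D7 library at the level of the highest D8 library. From D7 to D10 the log2 fold change was -3.29 (standard error 0.36, adjusted p = 3.1e-06, limma), that from D10 to D28 was 5.54 (standard error 0.36, adjusted p = 5.8e-09, limma), a 46.6-fold rise, and D28 was 4.75-fold above D7 (log2 fold change 2.25, standard error 0.36, adjusted p = 0.00014, limma). The call at D8 against D7, -1.40 (adjusted p = 0.011, limma), was lost without D7 replicate 2 (-1.01) and without D8 replicate 1 (-1.20), and under several other settings.

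Kera, the keratan sulfate proteoglycan of the cornea, was at the limit of detection. It was at 0 in 5 of the 12 libraries and the other values were 2.37 and 3.12 at D7, 3.45 and 1.46 at D8, 2.03 at D10, and 2.32 and 2.52 at D28, which correspond to at most 9 reads. No direction is read from its fold changes, since 7 libraries were at or under 3 reads and a difference was not detectable at this depth. It entered the test only because 7 libraries held a value of at least 1.

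In class III, Epyc, a dermatan sulfate proteoglycan of growth plate cartilage, was the only member called below its D7 level at D28. It was at 11.85, 12.41 and 11.36 at D7 and at 10.89, 11.60 and 11.35 at D8, where the libraries overlapped, and at 7.91, 9.04 and 8.63 at D10. At D28 it was at 10.31, 9.22 and 9.50, above all D10 and below all D7 libraries. The log2 fold change was -2.75 from D8 to D10 (standard error 0.31, adjusted p = 2.3e-05, limma), -3.35 at D10 against D7 (standard error 0.31, adjusted p = 7.0e-07, limma) and -2.20 at D28 against D7 (standard error 0.31, adjusted p = 5.0e-05, limma), which left 21.8% of the D7 level. The rise of 1.15 from D10 to D28 (adjusted p = 0.0062, limma) was not called without D10 replicate 1 (0.84) or without D28 replicate 1 (0.83).

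Ogn, also called mimecan, a regulator of collagen fibrils in many connective tissues, had the lowest fold change of the 10 at D10. It was at 13.87, 14.36 and 13.28 at D7, at 11.84, 12.64 and 11.85 at D8, at 8.99, 10.11 and 9.62 at D10 and 14.30, 14.46 and 14.10 at D28. The first 3 time points did not overlap, while D28 overlapped with D7. The log2 fold change was -1.72 at D8 against D7 (standard error 0.29, adjusted p = 0.00056, limma), -2.54 at D10 against D8 (standard error 0.29, adjusted p = 2.1e-05, limma) and -4.26 at D10 against D7 (standard error 0.29, adjusted p = 2.5e-08, limma), which left 5.21% of the D7 level. It rose by 4.72 to D28 (standard error 0.29, adjusted p = 2.9e-09, limma), a 26.3-fold recovery, and ended 0.45 above D7, with a 95% interval from -0.15 to 1.06.

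**Figure D3:**
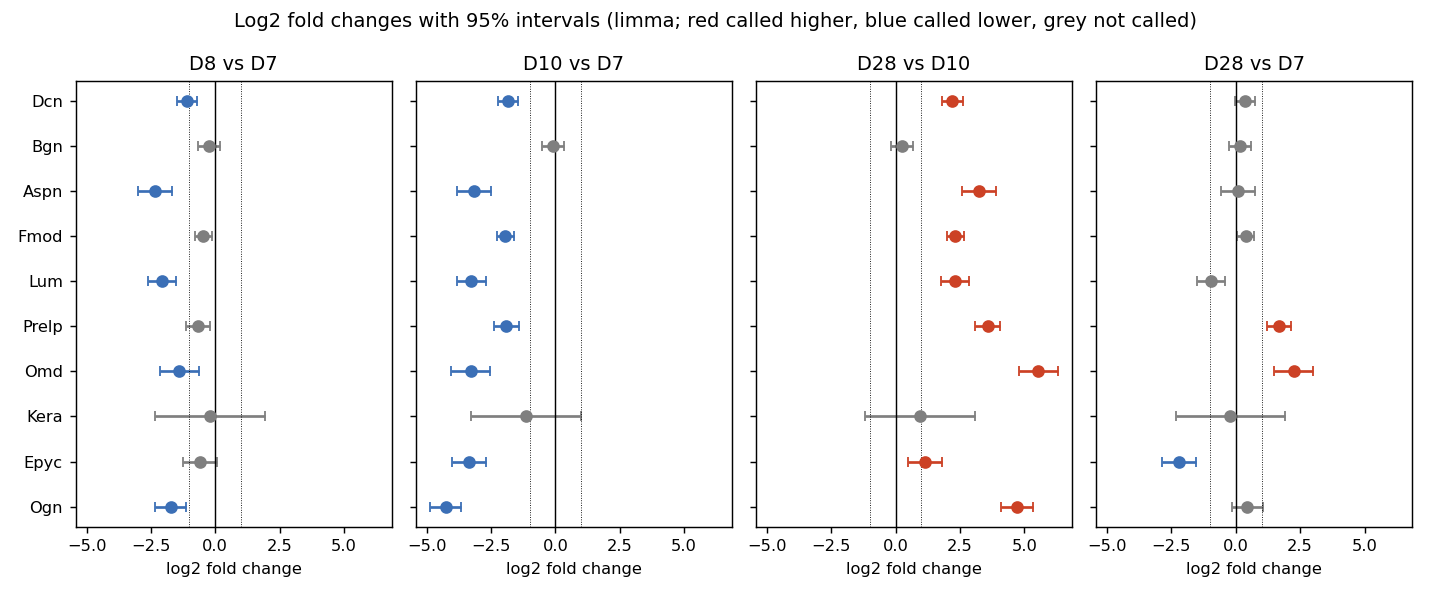
Log2 fold change of the 10 genes (points) with 95% intervals (bars) in D8 against D7, D10 against D7, D28 against D10 and D28 against D7, with dotted lines at -1 and 1. In D10 against D7 the called genes lie between -4.26 and -1.84, and in D28 against D7 only Omd and Prelp are called higher and only Epyc lower.

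Counted by comparison, 5 members were called lower at D8 against D7 (Dcn, Aspn, Lum, Omd and Ogn) and none higher, where 3.81% of all genes were called lower. Over all 10 members the median log2 fold change was -0.89, against 0.03 over all genes. Between D8 and D10, 6 were called lower (Fmod, Lum, Prelp, Omd, Epyc and Ogn), where the share over all genes was 5.58%. The median over the members was -1.21, and 0.00 over all genes. For D10 against D7 the median of the members was -2.56 and that of all genes 0.05. In the opposite direction, from D10 to D28, it was 2.31 against -0.10. Over the whole osteogenic phase, D28 against D7, 2 members were called higher, where 8.63% of all genes were, and 1 was called lower, where 8.66% were, and the median was 0.26 against -0.03. Called in either direction were 5, 6, 8, 8 and 3 members in D8 against D7, D10 against D8, D10 against D7, D28 against D10 and D28 against D7, where the shares of all genes were 7.04%, 9.66%, 18.9%, 27.5% and 17.3%. In the directions in which no member was called, the shares of all genes were 3.23% (higher at D8 than at D7), 4.08% (higher at D10 than at D8), 8.5% (higher at D10 than at D7) and 13.7% (lower at D28 than at D10). The libraries of the compared time points did not overlap for 6, 7, 8, 8 and 5 members in the same order of comparisons, and for 37.1%, 44%, 47.5%, 59.4% and 46.9% of all genes. The members differed in how much of the fall came first, since Aspn, Lum and Dcn had 73.5%, 63.4% and 59.7% of their log2 fall behind them at D8, and Fmod and Epyc only 23.8% and 17.8%.

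The proportions of the members within a library changed with time, and a change in such a proportion does not depend on gene length. Dcn minus Bgn on the log2 scale had means of -2.09 ± 0.19 (D7), -2.96 ± 0.15 (D8), -3.84 ± 0.54 (D10) and -1.87 ± 0.26 (D28; SD, n = 3), so the class I pair parted and came together again. Lum minus Dcn went from 0.32 ± 0.30 at D7 to -0.65 ± 0.19 at D8 and -1.10 ± 0.33 at D10 (SD, n = 3), and the D28 libraries lay between -1.36 and -0.80. Prelp minus Lum, at -2.36 ± 0.30 when the medium was changed, ended at 0.27 ± 0.31 by D28 (SD, n = 3). Omd minus Epyc had means of 0.31 ± 0.30 (D7), -0.49 ± 0.23 (D8), 0.37 ± 0.20 (D10) and 4.76 ± 0.51 (D28; SD, n = 3), so the order of the pair turned at D8 and again at D10, and the D28 libraries lay above all others. These pairs were chosen after their values were seen and no test was made of them.

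**Figure D4:**
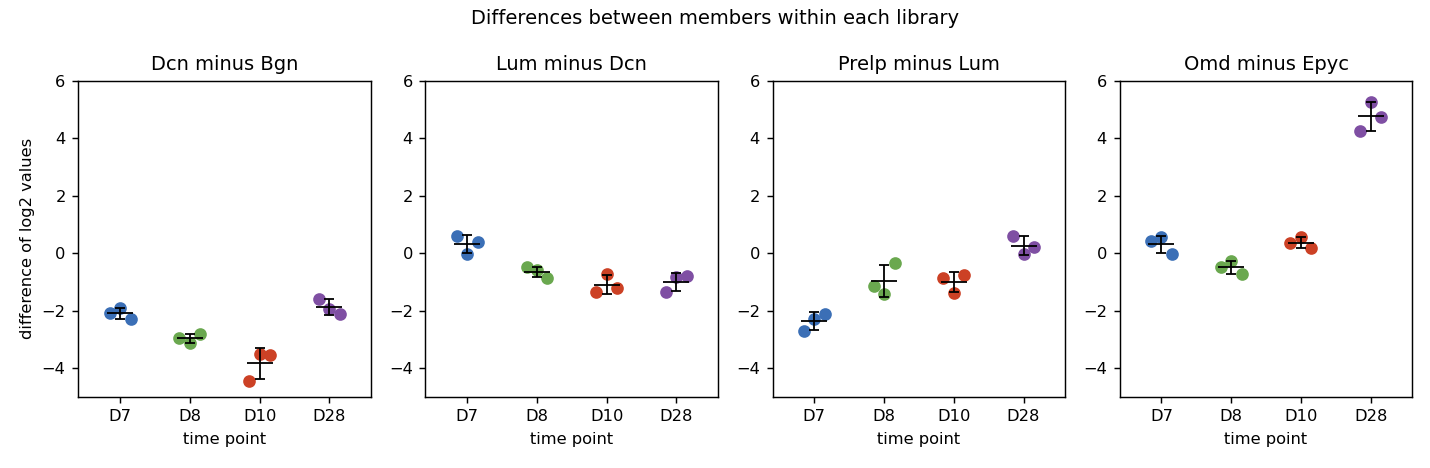
Difference between the log2 values of 2 members within each library (points) at D7, D8, D10 and D28, with the mean and SD of 3 replicates. Omd minus Epyc stays between -0.72 and 0.58 up to D10 and lies between 4.26 and 5.28 at D28.

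Members that were called lower at D10 and lie near each other on a chromosome did not all share a call at D28 against D7, and not every neighbour was called at D10. Differences between neighbours were not tested. On chromosome 10, with gaps of 47.0 kb between Dcn and Lum and 30.4 kb between Kera and Epyc, the log2 fold changes at D28 against D7 were 0.36 for Dcn, -0.95 for Lum and -2.20 for Epyc. On chromosome 13, where the gaps were 14.9 kb between Aspn and Omd and 15.2 kb between Omd and Ogn, they were 0.07 for Aspn, 2.25 for Omd and 0.45 for Ogn. Ecm2, 11.7 kb before Aspn, had log2 values of 7.41, 7.35 and 7.45 at D7, 5.19, 5.01 and 5.58 at D10 and 10.86, 10.68 and 10.60 at D28. Its D28 libraries were above all others, with a log2 fold change of 3.31 against D7 (standard error 0.17, adjusted p = 1.9e-09, limma). On chromosome 1, Prelp ended 1.68 and Fmod 0.38 above D7. Optc, the family gene next to Prelp, had low values in both groups, 3.41 ± 0.40 (D7) and 3.88 ± 0.47 (D10; SD, n = 3), and was not called at D10 against D7, nor was Cenpp (-0.06) on chromosome 13, and no direction is read for Kera, which lies between Lum and Epyc.

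Other genes of the same repeat family were examined as a list of 8 (Chad, Chadl, Nyx, Optc, Podn, Podnl1, Tsku and Ecm2). After the first day, at D8 against D7, 1 of the 8, Podn, was called higher (1.40, adjusted p = 0.00017, limma) and none lower. The shares of all genes were 3.23% and 3.81%. At D10 against D7, 5 of the 8 were called lower and none higher, where 10.4% and 8.5% of all genes were, with a median log2 fold change of -1.60. Nyx, which is among the 5, was at or under the level of 3 reads in each D10 library. From D10 to D28, 2 were called higher and 1 lower, where 13.8% and 13.7% of all genes were. The largest falls at D10 were those of Ecm2 (-2.15, adjusted p = 1.6e-07, limma) and Chadl (-2.13, adjusted p = 3.9e-08, limma), and both were called higher again at D28 than at D10. Chad, which encodes the cell-binding cartilage protein chondroadherin, was at 15.57 ± 0.26 at D7, 13.80 ± 0.37 at D10 and 13.70 ± 0.74 at D28 (SD, n = 3). Tsku, which encodes tsukushi, was called lower only late, at -1.51 in D28 against D7 (adjusted p = 6.0e-08, limma).

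The enzymes that start and modify the sugar chains of these core proteins were examined as a pair of lists. Of 10 genes for the linker sugars and for dermatan sulfate, none was called at D10 against D7 by limma, where 18.9% of all genes were, and the median log2 fold change was -0.49. From D10 to D28, where 27.5% of all genes were called, 2 of these 10 and 3 of 9 keratan sulfate genes were called. Of the former, Fam20b, a kinase of the linker, was called higher (1.09, adjusted p = 5.7e-06, limma) and B4galt7, a galactosyltransferase of the linker, lower (-1.02, adjusted p = 2.9e-06, limma). Of the 9 keratan sulfate genes tested, 1, Chst2, was called higher at D10 against D7 (1.31, adjusted p = 5.2e-05, limma), where 8.5% of all genes were. At D28 against D7 the sulfotransferase gene Chst5 was higher by 3.51 (adjusted p = 3.5e-06, limma) and Chst1 lower by a log2 fold change of -1.70 (adjusted p = 3.0e-05, limma).

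Most of the collagens that these proteoglycans bind or lie beside were also called lower at D10. Of 17 genes of fibrils and fibril surfaces, 11 were called lower and 1 higher at D10 against D7, where 10.4% and 8.5% of all genes were, and from D10 to D28, 3 were called higher and 2 lower, near the 13.8% and 13.7% of all genes. The largest falls at D10 were those of Col14a1 (-3.17, adjusted p = 2.3e-06, limma) and Col12a1 (-2.75, adjusted p = 3.1e-08, limma), both fibril-surface collagens that were called higher at D28 than at D10. Col14a1 was still called lower at D28 than at D7 (-1.71, adjusted p = 0.00085, limma), and Col12a1 (-0.71) was not. At D28 against D7, 7 of the 17 were called lower and none higher, where 8.66% and 8.63% of all genes were, with Col3a1 (-2.41, adjusted p = 9.2e-06, limma) and Col5a1 (-2.24, adjusted p = 5.9e-08, limma) the furthest down. Among 12 genes of collagen processing and cross-linking, 6 were called lower at D10 and none higher, where 10.4% and 8.5% of all genes were, and Pcolce, an enhancer of procollagen cleavage, fell by 2.39 (adjusted p = 3.7e-07, limma) and rose by 2.52 to D28 (adjusted p = 9.6e-08, limma). From D10 to D28, 5 of the 12 were called higher and 3 lower, among the latter Loxl4 (-2.83, adjusted p = 1.1e-08, limma). The shares of all genes were 13.8% and 13.7%. Over D28 against D7, 1 was called higher and 5 lower, where 8.63% and 8.66% of all genes were. Adamts3 (-4.29, adjusted p = 2.1e-07, limma) and Loxl3 (-2.69, adjusted p = 3.3e-08, limma) were the furthest down.

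Of 7 genes found for growth factors reported to bind the family, 3 were called lower and 1 higher at D10 against D7, where 10.4% and 8.5% of all genes were. Tgfb3 went from 10.58 ± 0.26 at D7 to 8.57 ± 0.42 at D10 and 11.86 ± 0.19 at D28, whereas Bmp2 went from 6.83 ± 0.28 to 10.12 ± 0.66 and back to 7.04 ± 0.36 (SD, n = 3). Of 12 genes for reported receptors, 3 were called higher and none lower at D10 against D7, with the same shares over all genes. Met, a receptor bound by decorin, went from 7.90 ± 0.21 at D7 to 10.79 ± 0.45 at D10 and 7.38 ± 0.45 at D28 (SD, n = 3). Igf1r and Egfr, also reported to bind decorin, differed at D10 against D7 by -0.64 and -0.72 on the log2 scale, neither of them called, and by 1.07 (called higher) and 0.78 (not called) at D28 against D10.

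Markers of several cell types moved with the dip. Over all genes, 10.4% were called lower and 8.5% higher at D10 against D7, 13.8% higher and 13.7% lower at D28 against D10, and 8.63% higher and 8.66% lower at D28 against D7, and the marker counts stand beside these shares. Of 8 chondrocyte markers, 6 were called lower at D10 against D7 and 5 higher at D28 against D10, and their summed log2 level was between 21.24 and 21.25 at D7, between 20.07 and 20.13 at D10 and between 21.20 and 21.24 at D28. This sum is mostly Col2a1, whose value is fixed by its rank and which was not called. Of 4 hypertrophic chondrocyte markers, 3 (Ihh, Pth1r and Mmp13) were called lower at D10 against D7 and higher at D28 against D10. Their summed level, between 17.52 and 17.83 at D7, between 17.69 and 18.39 at D10 and between 15.90 and 16.67 at D28, is mostly that of the remaining gene, Col10a1, which was at a mean of 17.27, 18.10 and 14.28 at these time points. Of 6 markers of tendon and fibrous tissue, 4 were called lower at D10, with summed levels between 11.19 and 11.31 at D7 and between 9.61 and 10.08 at D10. At D28 this list was split, since Tnmd was higher than at D7 while Scx and Mkx were lower. Of 5 adipocyte markers, 4 were called lower at D10 and all 5 higher at D28 against D7, where the summed level was between 15.80 and 16.27 against 12.54 to 12.65 at D7. The 4 skeletal muscle markers were called lower in both comparisons, from summed levels between 9.92 and 10.78 at D7 to between 4.19 and 4.57 at D28. Of 8 osteoblast and osteocyte markers tested, 4 were called lower and 3 higher at D10 against D7, and 4 higher and none lower at D28 against D10. Ibsp (-6.34, then 4.86), Alpl (-3.26, then 2.47) and Sp7 (-1.33, then 1.00) were called lower and then higher in these comparisons, while Bglap was called higher in both (3.25, then 2.52). The summed level, between 18.47 and 19.14 at D7, between 16.73 and 17.59 at D10 and between 17.44 and 17.60 at D28, is mostly that of Col1a1, the type I collagen gene. At D28 against D7, 3 were called higher and 2 lower, and Sost, the osteocyte marker, was at or near 0 in every library. The summed endothelial markers did not exceed 7.57 in any library, and 1 of the 4 was called at D10 against D7, higher. Of 6 macrophage and osteoclast markers, Cd68 (1.88) and Ctsk (1.31) were called higher and Adgre1 (-2.18) lower at D10 against D7, and 1 was called higher at D28 against D7. Their summed level was between 12.29 and 12.55 at D7 and between 13.63 and 13.73 at D10, without overlap. This sum is mostly that of Ctsk, which was at a mean of 12.26 at D7 and 13.57 at D10. The part of these cell types in the course of the proteoglycan genes was not tested.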

How the data were processed

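RNA-seq of 12 pellet libraries was used, 3 per time point. According to the supplementary methods and the submitters' processing notes, reads were trimmed (Trimmomatic 0.36), aligned with HISAT2, annotated with Cufflinks and counted per gene with HTSeq, then equalized between libraries. The authors deposited the log2 of this equalized count plus 1. The processing notes name GRCm38, whereas the supplementary methods name a human build; the table lists mouse symbols. Sorted values differed between libraries by a median of 0.00284 above a log2 value of 5, as after quantile normalization, so depth could only be estimated, from the order of the low values (levels of 5 to 60 reads). The labels name no batch.

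The linear model used limma 3.58.1 (R 4.3.3) with a variance trend, 1 coefficient per time point and 8 residual degrees of freedom, and p-values were two-sided. The study's own rule uses the same fold threshold with an unadjusted p for each gene. On simulated data for D10 against D7 with 17674 genes, 97 of 100 genes changed by a log2 fold change of 1.5 and 100 of 100 changed by 3 were recovered, with 4 false calls. The simulation drew independent normal values and moved only these 200 genes, all of higher mean. It held no equalization and no difference in depth, so these figures do not give the error of the calls on the real libraries. Unlogged shares, exon lengths (union of GENCODE M21 exons) and motifs were computed in Python 3.11.15. All members were named, and from each list the called genes of largest change. The members and lists were chosen with earlier results of these data known. Same-numbered replicates did not deviate together, with correlations above 0.1 in 2 of 18 pairs of libraries. Alternatives covered the low-value filter, scaling, pseudocount, low values raised to the level of 3 reads, a block for replicate number, the rule of the study, the libraries in the fit, the variance trend, the fold threshold and each library left out.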

Additional observations from a re-analysis of the deposited data

How the results depend on the processing

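Of 1145 member values recomputed under the alternatives, 1105 kept their direction and their call, 24 lost a call, 7 gained one and 9 changed sign. None that changed sign was called. Kera at D8 against D7 was 0.11 with low values raised to the 3-read level, 0.08 without D7 replicate 1, 0.45 without D7 replicate 2 and 0.63 without D8 replicate 2. At D28 against D7 it was 0.06 without D7 replicate 1, 0.43 without D7 replicate 2 and 0.59 without D28 replicate 1. Over all libraries left out in turn, Kera lay between -1.11 and 0.63 at D8 and between -1.13 and 0.59 at D28 against D7. Aspn at D28 against D7 was -0.05 without D7 replicate 3 and -0.17 without D28 replicate 2, and lay between -0.17 and 0.31 over all libraries left out. With a log2 fold change threshold of 2, 2 members were called at D8 against D7, 2 at D10 against D8 and 5 at D10 against D7. With any library left out, the count was 4 to 5 at D8 against D7, 4 to 7 at D10 against D8, 8 at D10 against D7, 7 to 8 at D28 against D10 and 3 to 4 at D28 against D7. The family's share of signal stayed between 1.07% and 1.14% at D7, 0.698% and 0.743% at D8, 0.550% and 0.576% at D10 and 1.29% and 1.37% at D28, and scaling cannot change it.

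With the replicate number as a block, the counts were 5, 6, 8, 8 and 3 in the same order, and no member's call changed. No library correlated best with its own number at every other time point. The call of Omd at D8 was also lost with low values raised, under the study's own rule, with only those time points fitted and without the variance trend. Epyc at D28 against D10 was not called under the study's own rule, nor Lum at D10 against D8 with only those time points fitted. Kera could not be tested with a mean log2 value of at least 3. Over all genes, the counts without a fold threshold were 3714, 5096, 7288, 9259 and 6592, and with a threshold of 2 they were 388, 532, 1342, 2095 and 1356, against 1244, 1708, 3340, 4854 and 3057. Median-of-ratios scaling moved the median of all genes from -0.10 to 0.01 at D28 against D10. Kera had reads near the floor, and D10 replicate 1, on which several calls rest, was the library of lowest depth.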

Other observations

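The genes whose course was most like that of each member over the 12 libraries were mostly not other members. The measure is Pearson's r among 17674 genes, given as a description, since all genes share the same libraries and these fall into 4 time points. Aspn was most like Gulp1 (0.994), Prelp like Agt (0.994), the angiotensinogen gene, and Fmod like Fgfr2 (0.993), a fibroblast growth factor receptor gene, with Cnmd, the chondromodulin gene, close behind (0.990). Lum was most like Ibsp (0.983), the bone sialoprotein gene, Dcn like Ankrd46 (0.982) and then Vdr (0.981), the vitamin D receptor gene, Ogn like Scrg1 (0.986), a gene of chondrogenic cells, Omd like 2810001G20Rik (0.984) and Epyc like Stc2 (0.977), a stanniocalcin gene. For Bgn the closest gene was Rprm (0.936), and for Kera no gene passed 0.80. The best rank that another member took was 25, that of Dcn among the genes ordered by likeness to Aspn (0.945). Dcn ranked 34 for Ogn and Ogn ranked 67 for Dcn (0.959), and Ogn ranked 129 for Fmod (0.956). Aspn ranked 87 for Lum (0.933), and Omd ranked 252 for Prelp and Prelp 113 for Omd (0.945). For Epyc the nearest member, Lum, ranked 1260 (0.678), and for Bgn the nearest, Aspn, ranked 992 (0.598).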
